A study of Mus musculus with 6 samples.

Results

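The 10 genes described here encode the integrin subunits Itga2, Itga3, Itga4, Itga5, Itga6, Itgav, Itgb1, Itgb3, Itgb4 and Itgb5, and were measured by RNA sequencing in a mouse ovarian cancer cell line with and without the mitochondrial and nuclear protein MNRR1. They are the rows of the deposited count table whose Ensembl IDs carry these symbols in the GRCm38 annotation, 10 of 49315 genes. The line is called TKO (triple knockout), and which genes were knocked out to make it is not named in the labels. The KO group was 3 libraries of MNRR1-knockout TKO cells, which the labels give a single clone name. The WT group was 3 libraries of TKO cells with MNRR1 intact, so both groups carry the triple knockout and differ by label in MNRR1. The WT labels give no clone name. Loss of MNRR1 and traits of the single KO clone therefore cannot be told apart in any difference given below. Nothing in the labels says that replicates came from separate cultures, and p-values therefore measure only the spread between the samples, which may be technical.

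Integrins are receptors that hold cells to the extracellular matrix. Each is a pair of an alpha and a beta subunit, and a subunit leaves the endoplasmic reticulum only once it has paired, so the partners that a cell makes set which receptors it can show at its surface. Itgb1 pairs with many alpha subunits, Itgav pairs with several beta subunits, and Itgb4 pairs with Itga6 alone. Ovarian cancer cells use such receptors to attach to fibronectin, vitronectin, laminin and collagen of the peritoneal lining. The comparison asked how the subunits of each possible receptor stood against each other in KO and WT cells. Counts are of RNA, and neither receptor protein nor its surface level was measured.

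Total counts ran from 33226463 to 40983999 per library. Chchd2, the gene of MNRR1, was at 17.1 ± 0.499 CPM in the KO libraries and at 352 ± 13.7 CPM in the WT libraries (SD, n = 3 each), where CPM is a gene's count relative to the library size after TMM scaling. KO replicate 2 was the KO library nearest to WT, with correlations of log CPM across genes of 0.967 to 0.970 to the WT libraries. In cells labelled as ovarian cancer, all 7 epithelial markers were detected. Their sum ran from 1110 to 1146 CPM in the KO libraries and 1427 to 1639 CPM in the WT libraries. Keratin genes made up nearly all of it, and Epcam, the highest of the other markers, averaged 2.4 (KO) and 2.3 CPM (WT). Of the 6 tested, Krt8, Krt18 and Krt7 were lower, the keratin gene Krt19 was higher (353.9 ± 20.6 CPM in WT and 481 ± 41.3 CPM in KO) and 2 were not called. Summed ovarian surface and Mullerian markers ran from 2230 to 2475 and from 3135 to 3342 CPM, with all 8 genes detected and Foxl2 under 0.1 CPM. Upk3b made up most of this sum, with means of 1520 (KO) and 2213 CPM (WT). Of the 6 tested, 3 were lower and 3 not called. Summed fibroblast and mesenchyme markers ran from 656 to 813 and from 1103 to 1180 CPM, with Col1a2 and Fap under 0.1 CPM. Dcn (means 465 in KO, 496 in WT) and Vim (236, 640) made up nearly all of this sum. Of the 5 tested, Vim and Thy1 were lower, Pdgfrb was higher and 2 were not called. Pdgfrb was at 1.08 ± 0.194 CPM in WT and 4.75 ± 1.42 CPM in KO. Thy1 had the greatest log2 change of the 5, from 2.28 ± 0.389 CPM in WT to no count in KO. Calls of markers follow the test and threshold given below, by which 55.7% of all tested genes were called. The 3 sums were lower in every KO library but not all their genes were, and the part of these markers in the integrin results was not tested. In bulk RNA, fewer cells of a type and less RNA per cell cannot be told apart.

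Of the 10 subunits, 8 had enough counts to be tested, and Itga2 and Itga4 did not. The 4 tested alpha subunits, Itga3, Itga5, Itga6 and Itgav, were all lower in KO. Of the 4 beta subunits, Itgb1 and Itgb5 were lower, while Itgb3 and Itgb4 were higher. These 2 higher and 6 lower calls, each at a Benjamini-Hochberg (BH) adjusted p under 0.05 over all tested genes by the quasi-likelihood test of edgeR, stand beside a background in which 55.7% of the 16033 tested genes were called, 27.8% higher and 27.8% lower. For each of the 8 the KO libraries were all above or all below the WT libraries, as for 64% of all tested genes. The median log2 change of the 8 was -0.38, and the median of all tested genes was 0.01.

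Itgb1, the common beta subunit of fibronectin, laminin and collagen receptors (ENSMUSG00000025809, chr8:128685654-128733200, plus strand of GRCm38), was the most abundant of the 10. It was at 517, 565 and 525 CPM in KO replicates 1 to 3 and at 700, 692 and 693 CPM in WT replicates 1 to 3. Every KO library lay below every WT library, and the WT values spanned less than the gap to the highest KO library. The fitted log2 change was -0.38 (SE 0.05, edgeR quasi-likelihood adjusted p = 0.000143), and the KO mean was 77.1% of the WT mean.

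Itga3, the laminin-binding partner of Itgb1 (ENSMUSG00000001507, chr11:95044474-95076801, minus strand), was the most abundant alpha subunit. Its level was 451, 436 and 505 CPM in the KO libraries and 619, 620 and 580 CPM in the WT libraries. KO replicate 3 was the KO library closest to WT for this gene, but it still lay below the lowest WT library. The log2 change was -0.39 (SE 0.06, edgeR quasi-likelihood adjusted p = 0.000421).

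Itgav, the RGD-binding alpha subunit shared by Itgb1, Itgb3 and Itgb5 (ENSMUSG00000027087, chr2:83724397-83806916, plus strand), was at 164, 159 and 151 CPM in the KO libraries and 240, 233 and 220 CPM in the WT libraries. Its KO mean was 68.4% of the WT mean. The log2 change was -0.55 (SE 0.05, edgeR quasi-likelihood adjusted p = 1.41e-05). Itga5, which with Itgb1 forms the main fibronectin receptor (ENSMUSG00000000555, chr15:103344286-103366763, minus strand), was at 47.1, 47.7 and 42.2 CPM in the KO libraries and 65.6, 60.3 and 57.5 CPM in the WT libraries. The genotypes did not overlap for either gene, and the log2 change of Itga5 was -0.42 (SE 0.07, edgeR quasi-likelihood adjusted p = 0.000471).

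The 4 subunits Itgb1, Itga3, Itga5 and Itgb5 had fitted log2 changes between -0.42 and -0.31, close to the median absolute log2 change of all tested genes (0.35). Itga6 stood further from 0. This laminin-binding alpha subunit, which pairs with Itgb1 or Itgb4 (ENSMUSG00000027111, chr2:71745616-71858416, plus strand), was at 14.1, 14.4 and 12.1 CPM in the KO libraries and 32.98, 33.12 and 29.75 CPM in the WT libraries. The highest KO value was under the lowest WT value by more than the whole spread of either group. Its log2 change was -1.24 (SE 0.09, edgeR quasi-likelihood adjusted p = 1.55e-06), and 89.6% of all tested genes had a smaller absolute change. Counts cover all exons of a gene, so the A and B tail isoforms of Itga3 and Itga6 were not separated.

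**Figure D1:**
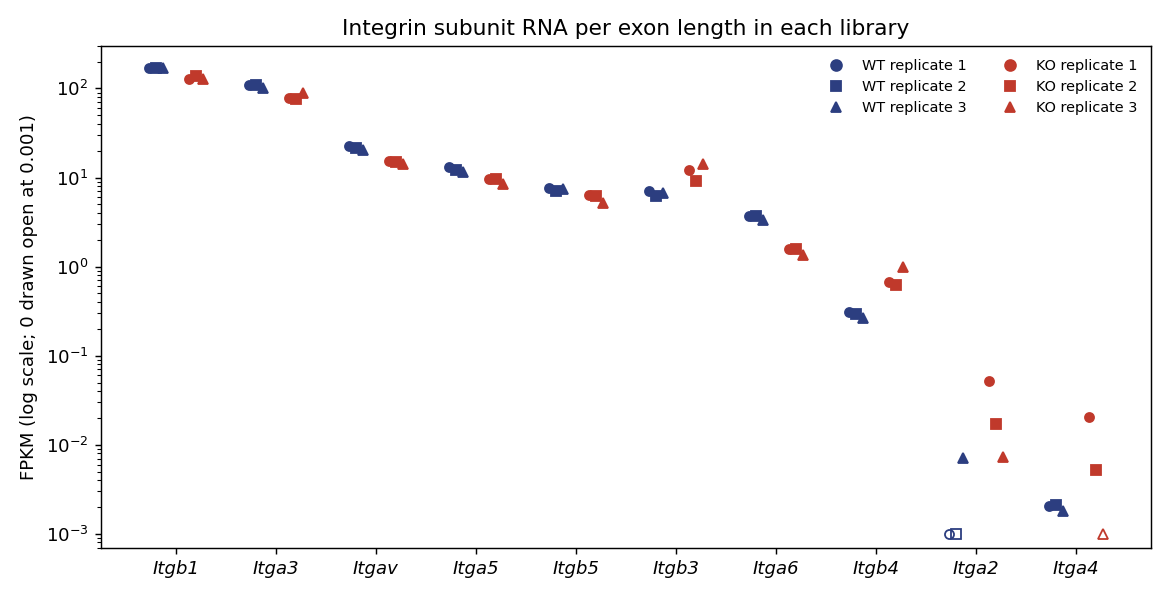
RNA level in FPKM (TMM-scaled CPM per kilobase of exon, log axis) of each integrin subunit in each library, with subunits ordered by their WT mean and values of 0 drawn as open symbols at 0.001. The 3 KO libraries lie below the 3 WT libraries for Itgb1, Itga3, Itgav, Itga5, Itgb5 and Itga6 and above them for Itgb3 and Itgb4, while Itga2 and Itga4 lie under 0.1 FPKM throughout.

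Promoters of subunits that were lower together in KO are shown here, since shared letters can then be compared. RefSeq windows on GRCm38.p6 were found for 7 of the 10 genes, and no window was found for Itga6, Itgb3 or Itgb4. The 250 bases before the start are printed 5′ to 3′ for Itgb1, Itgav, Itga5 and Itgb5, whose windows hold no annotated exon base. Capitals mark the letters GGGCGG (an Sp1 motif, CCGCCC on the other strand) and GGAATG (a TEAD motif, CATTCC on the other strand), which do not overlap here.
Itgb1, chr8:128685404-128685653, plus strand: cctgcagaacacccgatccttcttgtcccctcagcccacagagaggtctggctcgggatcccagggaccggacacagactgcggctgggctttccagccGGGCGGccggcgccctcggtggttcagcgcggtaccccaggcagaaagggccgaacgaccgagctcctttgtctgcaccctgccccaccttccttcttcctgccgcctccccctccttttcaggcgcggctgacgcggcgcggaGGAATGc
Itgav, chr2:83724147-83724396, plus strand: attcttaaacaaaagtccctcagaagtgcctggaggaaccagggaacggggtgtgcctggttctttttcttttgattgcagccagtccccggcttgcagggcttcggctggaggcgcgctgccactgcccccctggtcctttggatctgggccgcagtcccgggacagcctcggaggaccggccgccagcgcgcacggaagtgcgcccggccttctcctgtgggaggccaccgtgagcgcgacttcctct
Itga5, chr15:103366792-103367041, minus strand: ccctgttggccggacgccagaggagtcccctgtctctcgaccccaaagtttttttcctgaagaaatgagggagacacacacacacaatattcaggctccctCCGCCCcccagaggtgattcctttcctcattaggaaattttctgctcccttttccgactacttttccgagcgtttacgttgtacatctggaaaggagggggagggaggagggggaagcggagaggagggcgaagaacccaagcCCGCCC
Itgb5, chr16:33829415-33829664, plus strand: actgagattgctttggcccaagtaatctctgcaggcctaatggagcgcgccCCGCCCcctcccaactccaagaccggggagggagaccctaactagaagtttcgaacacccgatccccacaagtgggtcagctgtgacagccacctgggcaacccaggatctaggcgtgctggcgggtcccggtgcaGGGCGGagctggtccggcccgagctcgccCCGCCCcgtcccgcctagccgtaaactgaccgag
The Sp1 letters occurred in the windows of Itgb1, Itga5 and Itgb5 and not in that of Itgav, and 32.7% of all 32851 RefSeq promoter windows of this length hold them. They were also in the window of Itga4 and in both windows of Itga3, at its alternative starts, and not in that of Itga2. GC content was 68% for Itgb1, 64.4% for Itgav, 55.6% for Itga5 and 65.2% for Itgb5, against a median of 52.4% over all windows. The TEAD letters were found in the Itgb1 window alone, a few bases before its start, and 12.6% of all windows hold them. The AP-1 letters TGANTCA, which read alike on both strands, were in 0 of the 8 windows of the 7 genes, against 6.75% of all windows. The RBPJ letters TGGGAA, searched on both strands, were also in 0 of the 8, against 21.6% of all windows. A match of letters is a description and not a site.

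Itgb3, the beta subunit that joins Itgav in the vitronectin receptor and Itga2b in the platelet fibrinogen receptor (ENSMUSG00000020689, chr11:104608000-104670476, plus strand), rose. It was at 70.8, 54.2 and 83.4 CPM in the KO libraries and 41.7, 36.4 and 39.5 CPM in the WT libraries. The KO libraries spread widely, with replicate 3 highest and replicate 2 lowest, and all lay above WT. The log2 change was 0.82 (SE 0.14, edgeR quasi-likelihood adjusted p = 0.000924). The KO mean was 1.77 times the WT mean.

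Itgb4, the long-tailed beta subunit that links laminin to keratin filaments in hemidesmosomes (ENSMUSG00000020758, chr11:115974709-116008412, plus strand), had the greatest rise of the tested members from a low level. Its counts were 164, 177 and 268 in the KO libraries and 75, 70 and 74 in the WT libraries, or 4.70, 4.35 and 6.91 CPM against 2.15, 2.07 and 1.86 CPM. Replicate 3 was again the highest KO library, and the lowest KO library lay at about 2 times the highest WT library. The log2 change was 1.39 (SE 0.20, edgeR quasi-likelihood adjusted p = 0.000155), and 91.4% of tested genes had a smaller absolute change. A long noncoding gene on the opposite strand, B230344G16Rik, shares 537 exon bases with Itgb4, and it had 18 counts over the 6 libraries. Without a stated strand setting, reads of such partners cannot be told apart.

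Itgb5, which with Itgav forms another vitronectin receptor (ENSMUSG00000022817, chr16:33829665-33949338, plus strand), did not follow Itgb3. It was at 22.4, 22.3 and 18.4 CPM in the KO libraries and 26.9, 25.0 and 26.2 CPM in the WT libraries. The genotypes did not overlap, with KO replicate 3 the lowest. Its log2 change of -0.31 (SE 0.09) had an edgeR quasi-likelihood adjusted p of 0.0111, and this call was lost with scaling by library totals (adjusted p = 0.0805) and without WT replicate 1 (adjusted p = 0.0518), in a range of 0.00135 to 0.0805 over all settings.

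**Figure D2:**
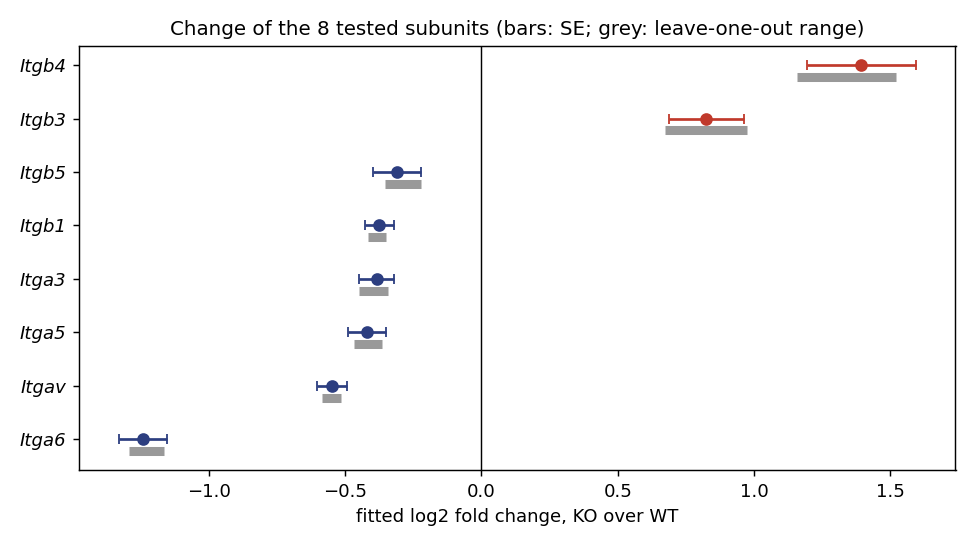
Fitted log2 fold changes of KO over WT for the 8 tested subunits, with the point and bar giving the estimate and its SE and the grey bar the range when each library is left out in turn. Itgb4 and Itgb3 lie at 1.39 and 0.82, Itga6 at -1.24, and the other 5 between -0.55 and -0.31.

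Itga2, the collagen-binding alpha subunit (ENSMUSG00000015533, chr13:114833081-114932100, minus strand), and Itga4, which with Itgb1 binds VCAM-1 and fibronectin (ENSMUSG00000027009, chr2:79255426-79333123, plus strand), were nearly silent. Itga2 had 13, 5 and 2 counts in KO replicates 1 to 3, against 0, 0 and 2 in WT. Itga4 had 10, 3 and 0 counts in the KO libraries and 1 count in each WT library. For both genes most KO counts came from replicate 1, and KO replicate 3 did not exceed the highest WT count. Summed over libraries and scaled, the KO over WT ratio was 9.49 for Itga2 (95% counting interval 2.3 to 83.7) and 4.11 for Itga4 (1.13 to 22.5), where the intervals cover counting error only. With no filter on low counts Itga2 passed edgeR's quasi-likelihood test (log2 change 3.07, adjusted p = 0.0127) and Itga4 did not (1.94, adjusted p = 0.189). The pooled level of Itga2 was 0.175 CPM in KO cells. For scale, 3 counts in a single library are the 95% upper limit where none is seen. They correspond to 0.0732 to 0.0903 CPM by total counts, without TMM scaling.

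Levels of different genes were compared per exon length. In WT libraries the order was Itgb1 at 170 ± 1.09 FPKM, Itga3 at 106 ± 4.02, Itgav at 21.5 ± 0.915, Itga5 at 12.4 ± 0.831, Itgb5 at 7.32 ± 0.269, Itgb3 at 6.64 ± 0.449, Itga6 at 3.54 ± 0.211 and Itgb4 at 0.289 ± 0.0207 FPKM (SD, n = 3). The values of Itgb5 and Itgb3 overlapped, and the other neighbours among these 8 did not. In KO libraries Itgb3, at 11.8 ± 2.48 FPKM, stood above Itga5 (9.26 ± 0.607) and Itgb5 (5.91 ± 0.645) and below Itgav (14.7 ± 0.619), and it overlapped both Itgav and Itga5 per exon length but neither per coding length. Itgb1 at 131 ± 6.24 and Itga3 at 81.3 ± 6.33 FPKM remained first and second, and Itga6 at 1.497 ± 0.139 and Itgb4 at 0.758 ± 0.198 FPKM remained seventh and eighth. With coding length in place of exon length, Itgb3 (16.6 ± 1.12) stood above Itgb5 (10.5 ± 0.386) in WT as well, so their order in WT depends on the length used.

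The 10 subunits can form 9 receptor pairs with each other, of which 7 have both subunits tested. In 5 of these pairs both subunits were lower in KO: Itga3, Itga5, Itga6 and Itgav with Itgb1, and Itgav with Itgb5. In 2 pairs the subunits went opposite ways, Itgav with Itgb3 and Itga6 with Itgb4. No pair had both subunits higher. Itgav with Itgb5 rests on the Itgb5 call, which some settings lost. Pairs with both subunits called the same way numbered 4 with library totals, without WT replicate 1 and at a threshold of 0.01. The pairs share subunits and are not independent of each other.

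To compare subunits within a pair, the log2 ratio of alpha over beta per exon length was taken in each library, which no scaling between libraries can change. The exact two-sided permutation test of 3 against 3 libraries cannot give a p below 0.1, so no ratio could pass a threshold of 0.05. KO and WT ratios did not overlap for 6 of the 9 pairs, each with exact permutation p = 0.1 and 0.15 after BH adjustment over the 9 pairs. For levels of single genes, a different measure, 64% of all tested genes did not overlap, and no such share was computed for ratios. The 6 include Itga2 over Itgb1, where Itga2 had 2 counts in both KO replicate 3 and WT replicate 3.

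The ratio of Itgav over Itgb3 was 0.35, 0.69 and -0.01 in the KO libraries and 1.66, 1.81 and 1.62 in the WT libraries on the log2 scale. Itgav RNA per exon length was thus 3.24 times that of Itgb3 in WT and 1.27 times in KO cells. Per coding length it was 4.44 and 1.74 times, and in KO replicate 3, whose ratio per exon length was near 1, it was 1.36 times. The difference was -1.35 (SE 0.21, exact permutation p = 0.1). In both genotypes Itgb3 had the lower mean level of the pair, and the level of the scarcer subunit went from 6.64 ± 0.449 to 11.7 ± 2.44 FPKM.

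The ratio of Itga6 over Itgb4 was 1.22, 1.36 and 0.44 in the KO libraries and 3.57, 3.63 and 3.62 in the WT libraries on the log2 scale. Itga6 was at 12.2 times Itgb4 in WT and 2.01 times in KO cells per exon length, and at 26.1 and 4.29 times per coding length, with the same difference between genotypes. The difference of -2.60 (SE 0.29, exact permutation p = 0.1) was the greatest in size among the 7 pairs with both subunits tested. Itgb4 was the scarcer subunit in every library, at 0.289 ± 0.0207 FPKM in WT and 0.758 ± 0.198 FPKM in KO cells. Per coding length it ran from 0.332 to 0.382 in WT and from 0.775 to 1.23 in KO libraries.

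Among pairs with Itgb1, the ratio of Itga6 over Itgb1 was lower in KO by a log2 difference of -0.87 (SE 0.09, exact permutation p = 0.1), with no overlap. That of Itgav over Itgb1 was lower by a difference of -0.17 (SE 0.06), also with no overlap. The ratio of Itga3 over Itgb1 differed by -0.01 (SE 0.10, exact permutation p = 0.9) and that of Itga5 over Itgb1 by -0.04 (SE 0.07, exact permutation p = 0.6), and both overlapped between genotypes. Itgav over Itgb5 differed by -0.23 (SE 0.08), with no overlap. Itga2 over Itgb1 and Itga4 over Itgb1 rest on the few alpha counts given above. For these the alpha subunit was far below Itgb1 in both genotypes.

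**Figure D3:**
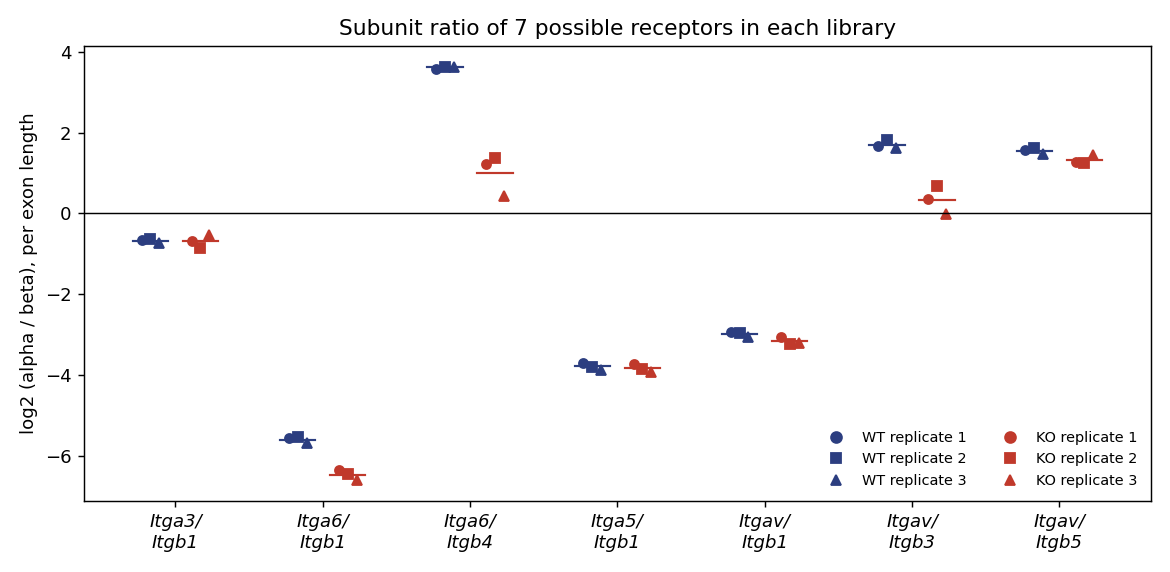
Log2 ratio of alpha over beta RNA per exon length in each library for the 7 possible receptors with both subunits tested, with lines at group means. KO and WT separate most for Itga6 over Itgb4 (means 1.01 and 3.61) and Itgav over Itgb3 (0.34 and 1.70), and overlap for Itga3 and Itga5 over Itgb1.

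The make-up of the subunit pool was then described per length. Among the 4 beta subunits, Itgb1 took 92.0%, 92.6% and 92.2% of the summed FPKM in WT and 87.0%, 89.6% and 86.4% in KO libraries. Itgb3 took 3.79%, 3.37% and 3.63% in WT and 8.23%, 5.94% and 9.49% in KO libraries. Neither share overlapped between genotypes (exact permutation p = 0.1, the smallest possible), and that of Itgb5 did (3.95% ± 0.437 in KO and 3.97% ± 0.111 in WT, exact permutation p = 1).

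Among the 6 alpha subunits, Itga3 took 76.0% ± 2.3 of the summed FPKM in KO and 73.9% ± 0.467 in WT, and Itgav took 13.8% ± 1.14 and 15.0% ± 0.139. Itga6 took 1.41% ± 0.192 in KO and 2.47% ± 0.053 in the WT libraries. These 3 shares did not overlap between genotypes (exact permutation p = 0.1 each). Without KO replicate 3 the difference in the Itga3 share (KO minus WT) went from 2.11 to 0.792 percentage points and that in the Itgav share from -1.17 to -0.509. That of Itga5 did overlap, at 8.71% ± 0.958 and 8.63% ± 0.336. The summed level of the alpha subunits was 107 ± 5.07 FPKM in KO and 143 ± 5.76 in WT (exact permutation p = 0.1), and that of the beta subunits was 150 ± 4.41 and 184 ± 1.76 FPKM (exact permutation p = 0.1). The shares cover the listed subunits only. Itga7, an alpha subunit outside these 6 and picked with its value known, was at 7.14 FPKM in KO and 8.16 FPKM in WT. It was not called.

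**Figure D4:**
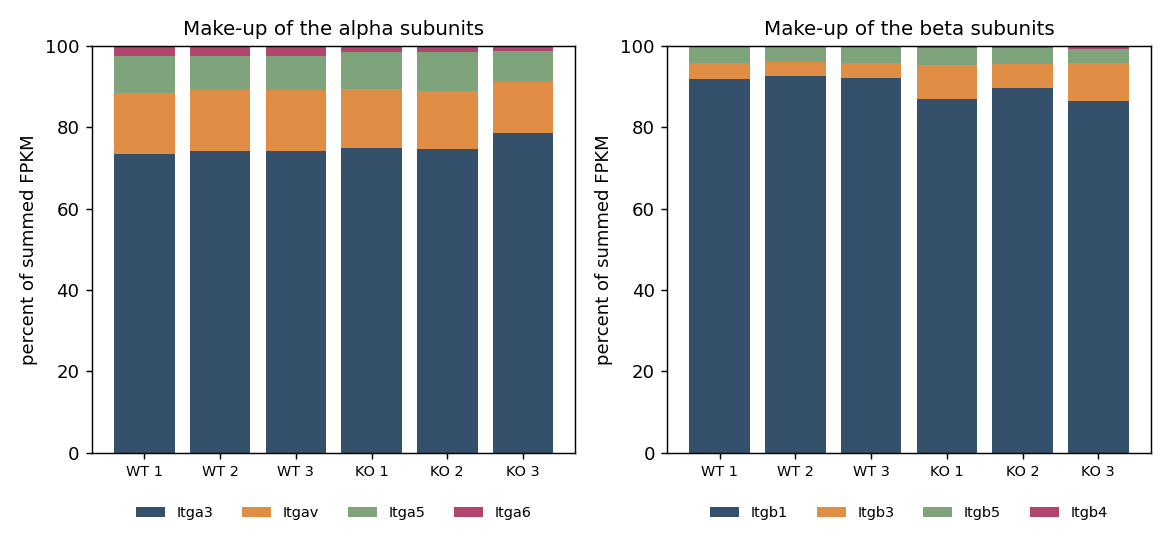
Share of each subunit in the summed FPKM of the alpha subunits (left) and of the beta subunits (right) in each library, with Itga2 and Itga4 too small to draw. The Itgb3 band lies between 3.37% and 3.79% in WT and between 5.94% and 9.49% in KO libraries, and Itga3 is the largest alpha band in every library.

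The 3 KO libraries did not sit at equal distance from WT. KO replicate 3 was the farthest from the WT mean for 6 of the 8 tested members, with the highest Itgb3 and Itgb4 and the lowest Itga5, Itga6, Itgav and Itgb5. KO replicate 2 was the nearest to WT for 5 of the 8. Over all tested genes, too, KO replicate 3 had the lowest correlations of log CPM to the WT libraries (0.952 to 0.956) and KO replicate 2 the highest. Without KO replicate 3 the log2 difference of the Itgav over Itgb3 ratio was -1.18, and without KO replicate 2 it was -1.53. For Itga6 over Itgb4 these values were -2.32 and -2.78.

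The integrin family has 17 other subunits on the list used here, of which 8 were tested. Of these, 2 were higher, 2 lower and 4 not called, beside 27.8% of all tested genes called in each direction. Itga2b, the platelet partner of Itgb3, rose from 3.23 ± 0.540 to 8.45 ± 1.67 CPM (log2 change 1.39, edgeR quasi-likelihood adjusted p = 8.01e-05). Summed platelet markers ran from 7.197 to 10.003 CPM in the KO libraries and 3.203 to 4.457 CPM in the WT libraries, Itga2b being itself among the 5 genes, while the defining platelet genes Gp9 and Gp1bb had no count in WT and at most 0.0516 and 0.123 CPM in a KO library. Of the other 2 platelet genes, Ppbp (0.455 CPM in the KO libraries, 0.282 CPM in WT) was not called, and Pf4 was too low to be tested. Itgal, an alpha subunit of leukocytes, rose from 12.7 ± 0.616 to 19.1 ± 2.29 CPM, whereas its partner Itgb2 was too low to be tested (0.136 CPM in the KO libraries and 0.392 CPM in WT). Summed leukocyte markers were lower in KO, at 3.537 to 3.996 CPM against 5.69 to 13.1 CPM. The 3 tested genes of 9 were all lower, and the T cell gene Cd3e had no count. Cd68 (means 2.98 CPM in KO, 4.79 CPM in WT) and Lyz2 (0.17, 2.10) made up most of this sum. Lyz2 overlapped between genotypes, at 1.745, 4.31 and 0.252 CPM in WT replicates 1 to 3. Itgb2 is itself among the 9 genes. Itgb8, another partner of Itgav, fell from 11.9 ± 0.719 to 6.09 ± 0.881 CPM (log2 change -0.96, edgeR quasi-likelihood adjusted p = 7.97e-05). The part of these cell types in the values was not tested. Summed endothelial markers were at 2.73 to 3.79 CPM in the KO libraries and 5.77 to 6.26 CPM in the WT libraries. Of the 3 tested, Kdr was lower (5.35 ± 0.343 CPM in WT and 1.13 ± 0.0826 CPM in KO), Tek was higher (0.287 ± 0.0493 and 1.68 ± 0.528 CPM) and Pecam1 was not called, and the group means of Cdh5, Vwf and Emcn were under 0.1 CPM.

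Genes for the ligands of these receptors and for proteins that work with them were counted list by list, against the 27.8% of all tested genes called in each direction. Of 18 tested collagen, laminin and basement membrane genes, 3 were higher and 12 lower, with a median log2 change of -0.49. Nid1, which ties laminin to collagen IV, was at -5.21, the collagen gene Col1a1 at -3.70, and the collagen IV genes Col4a1 and Col4a2 at -3.32 and -2.98 on the log2 scale. In WT these stood at 28.2, 134, 11.9 and 13.4 CPM, in the same order. The more abundant collagen gene Col3a1, picked with its value known, was among the higher ones, at 268 CPM in WT and 481 CPM in KO. Of 17 tested genes for RGD and other glycoprotein ligands, 1 was higher and 11 lower, with a median of -0.76. The fibrillin gene Fbn1 was at -3.43, the elastic fibre gene Fbln5 at -2.54, the Itga4 ligand gene Vcam1 at -2.22 and the osteopontin gene Spp1 at -1.90. Fn1, which encodes fibronectin and is outside the naming rule, picked with its value known, measured 631 CPM in the KO libraries and 1068 CPM in the WT libraries (log2 change -0.76, edgeR quasi-likelihood adjusted p = 2.25e-05). Vtn, the gene of vitronectin, also picked with its value known, measured 1.63 CPM in the KO libraries and 3.06 CPM in the WT libraries.

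Inside the cell, integrin tails are bound by talin and kindlin, which activate the receptor, and by filamins, which compete with talin. Of 16 tested activator and inactivator genes, 3 were higher and 9 lower, with a median log2 change of -0.33. The filamin gene Flna was at -0.66, and Tln1, the gene of talin 1, fell from 557 ± 47.3 to 316 ± 29.6 CPM (log2 change -0.82, edgeR quasi-likelihood adjusted p = 1.35e-05). Rasip1, an effector of the Ras-like GTPase Rap1, was at 1.51, from a low level of 0.697 ± 0.231 CPM in WT to 2.01 ± 0.258 CPM in KO. Tln2, the gene of talin 2, picked with its value known, was higher, at 19.7 CPM in WT and 25.8 CPM in KO. Of 20 tested focal adhesion plaque genes, 1 was higher and 14 lower, with a median of -0.42. Zyx (zyxin), Tns1 (tensin 1) and the actin cross-linker gene Actn1 were at -1.67, -1.46 and -1.45, while the parvin gene Parvb rose from 26.0 ± 4.48 to 59.1 ± 10.6 CPM.

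**Figure D5:**
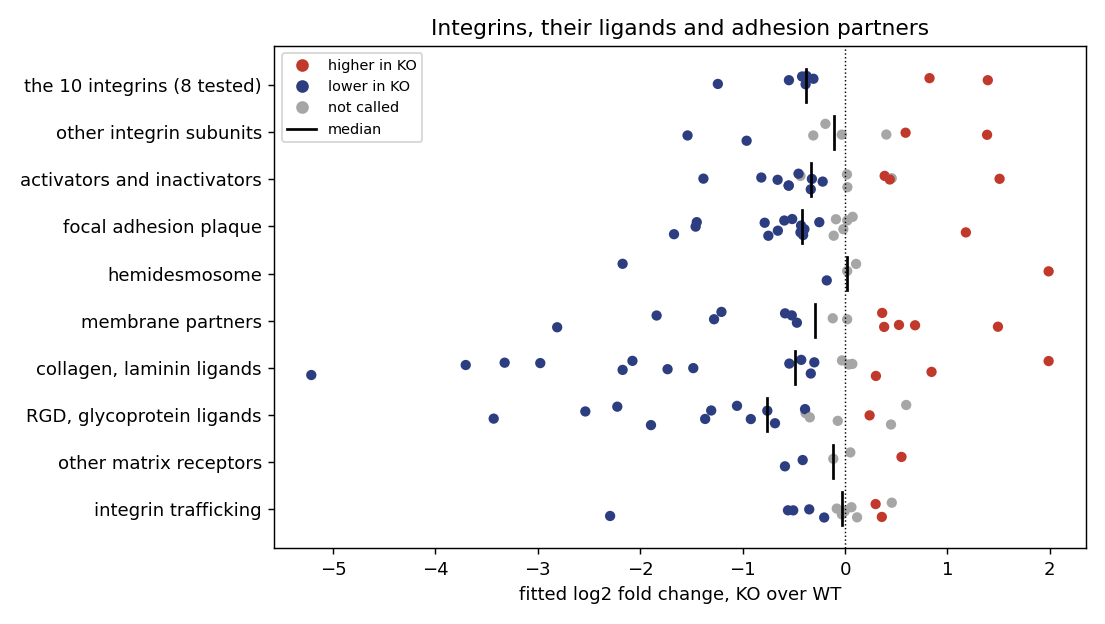
Fitted log2 fold change of KO over WT for every tested gene of the integrin members and of 9 lists of other subunits, binding partners and ligands, colored by call, with a line at each median. The medians lie between -0.76 for the RGD and glycoprotein ligands and 0.02 for the hemidesmosome genes.

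Genes of the hemidesmosome, the structure in which Itga6 and Itgb4 act together, were few. Of 5 tested genes, 1 was higher, 2 lower and 2 not called, against 27.8% of all tested genes called in each direction. Plec, the gene of plectin, which binds the Itgb4 tail, was at -0.18 (edgeR quasi-likelihood adjusted p = 0.0384), and the laminin chain gene Lama3 rose from 0.354 ± 0.0669 to 1.41 ± 0.25 CPM. The laminin chain gene Lamb3 and the hemidesmosomal collagen gene Col17a1 were under 0.1 CPM in both genotypes.

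Of 14 membrane proteins that associate with integrins, 5 were higher and 7 lower, against 27.8% of all tested genes each way, with a median log2 change of -0.29. The caveolin gene Cav1 was at -2.81, the hyaluronan receptor gene Cd44 at -1.84 and the heparan sulfate proteoglycan gene Sdc4 at -1.28, while Emp2 was at 1.49. Of 13 tested genes of integrin endocytosis and recycling, 2 were higher and 5 lower, with a median of -0.03. This share of calls was near the 55.7% of all tested genes called in either direction. Dab2, an endocytic adaptor that binds beta subunit tails, fell from 39.8 ± 0.824 to 8.11 ± 1.35 CPM (log2 change -2.29). Arf6, a GTPase of recycling, was at -0.56, Nf2 at -0.51 and Rab11fip1 at 0.36. Among 5 matrix receptors that are not integrins, the collagen receptor gene Ddr2 was at 0.55, its relative Ddr1 at -0.41 and the laminin receptor gene Bcam at -0.59, and the other 2 were not called.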

How the data were processed

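RNA of 3 KO and 3 WT libraries was sequenced. The authors deposited unnormalized read counts for each Ensembl gene. The submitters' processing notes name STAR 2.5.2b and Subread 1.5.2 among their tools, and build GRCm38 (mm10). Strand setting, annotation release and the handling of multi-mapping reads were not given in the sources used here.

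Symbols, positions and lengths came from GENCODE M21, which matched 49056 gene IDs and not 259. Genes were filtered with filterByExpr (minimum count 10), scaled by TMM and fitted with edgeR 4.0.16 in R 4.3.3 (robust quasi-likelihood, genotype only). P-values were BH adjusted over 16033 genes at a threshold of 0.05. The models were run on simulated counts in which 200 genes were changed. In the data 55.7% of tested genes were called, so that run does not cover changes this widespread. FPKM is TMM-scaled CPM per kilobase of merged exons, TMM is the trimmed mean of M values, and subunit ratios had 0.5 counts added. All 10 members were named, and from each other list up to 4 called genes, at 1 CPM or more, whose change was greatest, of which 2 are not reported here. Marker genes with values of their own were picked after those were seen. Members and lists were chosen with earlier results of these data known. Alternatives were other scalings and filters, DESeq2 1.42.0, limma voom (limma 3.58.1), a non-robust fit, a replicate block, a threshold of 0.01 and omission of each library.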

Additional observations from a re-analysis of the deposited data

How the results depend on the processing

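All 8 tested integrins kept their direction under all 16 alternatives, and 7 of them kept their call. Itgb5 lost its call with library totals, without WT replicate 1 and at a threshold of 0.01. Library totals moved the median log2 change of all genes from 0.01 to 0.13 and made 63.7% of the calls higher, where TMM split them evenly, so small changes are relative to TMM. The members called were 2 to 3 higher and 5 to 6 lower, and the pairs with both subunits called the same way were 4 to 5. Samples with the same replicate number did not deviate together (correlations -0.059, 0.051 and 0.028), and a replicate block gave 8878 called genes against 8925 and changed no integrin call. Without KO replicate 2, 10002 genes were called, and without each of the other 5 libraries 7587 to 8342. With coding length the Itgb3 share of beta subunits differed by 6.14 percentage points (KO minus WT), against 4.29 per exon length, and the Itga6 share of alpha subunits by -1.43, against -1.06. With no length correction the Itgb1 share differed by -6.37, against -4.62, the Itgb4 share by 0.577, against 0.351, and the Itga6 share by -1.45. Adding 0.1 counts moved the Itga2 over Itgb1 difference from 3.04 to 4.53. The alternatives for beta shares and the coding-length pair levels were chosen after seeing the data. The few counts of Itga2 and Itga4 limit what can be said of their receptors.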
